A study of Rattus norvegicus with 74 samples.

Results

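The genes described here carry the symbols of subunits of the mitochondrial respiratory chain and of ATP synthase that are made from nuclear genes. They were picked by a rule on names, set with earlier results of these data known. It takes rat symbols of the complex I subunits (Nduf with a, b, c, s or v and a digit), the complex II subunits Sdha to Sdhd, the complex III subunits (Uqcr symbols and Cyc1), the complex IV subunits (Cox4 to Cox8) and the Atp5 genes of complex V. The rule found 80 of the 14217 genes measured on the array, 35 in complex I, 4 in complex II, 8 in complex III, 17 in complex IV and 16 in complex V. One of them, Cox6c-ps1, is a pseudogene by its symbol. Each gene was assigned to a complex by its symbol alone, so some may work in another complex or be no subunit.

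RNA from the left liver lobe of Wistar Han rats (Crl:WI (Han)) was measured on 74 arrays at postnatal day 22, in 15 groups given an agent by oral gavage. PBDE-47, a single brominated diphenyl ether, and DE-71, a commercial mixture of brominated diphenyl ethers that contains PBDE-47, were given at 0, 0.1, 15 and 50 mg/kg. Dams received them on gestation days 6 to 21, and their pups on postnatal days 12 to 21. Phenobarbital, a barbiturate that activates the nuclear receptor CAR, was given at 0, 5 and 45 mg/kg, and PCB126, a dioxin-like biphenyl that activates the aryl hydrocarbon receptor, at doses labelled 0, 10, 50 and 250 mg/kg; the schedule of these animals and the sex of all animals are not given. Each agent has its own 0 mg/kg group, with 5 samples in each group except PBDE-47 0 mg/kg, DE-71 15 mg/kg and DE-71 50 mg/kg, which have 4. The first and the second of these hold 1 sample that is the mean of 2 nearly identical arrays.

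The respiratory chain passes electrons from NADH, through complex I, and from succinate, through complex II, to ubiquinone, then through complex III and cytochrome c to complex IV, which reduces oxygen. Complexes I, III and IV pump protons across the inner mitochondrial membrane, and complex V uses their return to make ATP. Each of these complexes except complex II also holds subunits encoded by mitochondrial DNA; none of the 13 such genes was among the genes measured. The liver is rich in mitochondria and uses the chain for fatty acid oxidation, urea synthesis and gluconeogenesis.

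Promoters of nuclear chain genes are known for binding sites of the nuclear respiratory factors NRF-1 and GABP and of estrogen-related receptors (ERR). RefSeq promoter sequences (build GRCr8, 250 bases before to 50 after the start) were matched to 71 of the 80 genes. The letters CCGGAAG, the core of a GABP site, were found on either strand in 20 of the 71 promoters (28.2%), in 15.1% of the 11733 promoters of genes on the array and in 9.22% of all 27457 promoters. AAGGTCA, the letters of an ERR site, stood in 11 (15.5%), against 3.14% of the array's promoters and 4.37% of all. GCGCATGCG, an NRF-1 site, stood in 5 (7.04%), against 2.82% and 1.66%, and its inner letters GCATGC, which every match of the longer site also holds, in 11 (15.5%), against 8.56% and 7.34%. The promoters of 3 genes are shown. Ndufs7 and Ndufb3 fell in both Phenobarbital and DE-71 livers. Sdhd fell in DE-71 livers, by its brighter probe set only. It was the only called gene with a match among those with a promoter in the table. Ndufs7 lies on the minus strand at chr7:10110449-10110748, Ndufb3 on the plus strand at chr9:67623167-67623466 and Sdhd on the minus strand at chr8:59850592-59850891. Capitals mark the matches to the sites named, 2 to CCGGAAG and 1 to AAGGTCA, all in Sdhd and all read as the reverse complement of these letters.
Ndufs7: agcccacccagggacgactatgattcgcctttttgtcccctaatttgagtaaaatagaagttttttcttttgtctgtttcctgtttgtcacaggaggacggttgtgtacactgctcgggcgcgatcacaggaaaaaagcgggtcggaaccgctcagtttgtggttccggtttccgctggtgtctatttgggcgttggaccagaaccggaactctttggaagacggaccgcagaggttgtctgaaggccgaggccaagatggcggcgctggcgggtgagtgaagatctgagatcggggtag
Ndufb3: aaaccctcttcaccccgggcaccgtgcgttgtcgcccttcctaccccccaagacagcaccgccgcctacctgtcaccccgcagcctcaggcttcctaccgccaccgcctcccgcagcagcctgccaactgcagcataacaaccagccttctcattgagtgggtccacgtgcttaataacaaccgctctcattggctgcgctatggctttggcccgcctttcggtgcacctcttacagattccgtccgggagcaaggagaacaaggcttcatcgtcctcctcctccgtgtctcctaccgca
Sdhd: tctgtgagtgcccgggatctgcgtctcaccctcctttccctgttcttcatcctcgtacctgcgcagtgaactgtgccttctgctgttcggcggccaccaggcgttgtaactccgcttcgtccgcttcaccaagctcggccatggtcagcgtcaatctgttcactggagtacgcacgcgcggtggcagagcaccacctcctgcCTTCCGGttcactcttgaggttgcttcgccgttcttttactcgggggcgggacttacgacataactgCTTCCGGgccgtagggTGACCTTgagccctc
None of the 4 motifs stood in the window of Ndufs7 or Ndufb3, nor in those of Ndufv1, Cox6b1, Ndufa5 and Ndufc1, the other genes below with a test result past the threshold and a promoter in the table.

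Of the 80 genes, 72 had a mean of at least 6 log2 units over all arrays, where the medians of the arrays over all probe sets lay between 4.816 and 5.036. Values are robust multi-array average (RMA) log2 values, so a difference of 1 is 2-fold, and levels of different probe sets cannot be set against each other. The liver label was checked against markers: the mean of 8 measured hepatocyte markers lay between 13.65 and 14.17 in all samples. The mean of the 72 genes had an SD of 0.16 to 0.20 between samples in DE-71 0, 0.1 and 50 mg/kg and in PCB126 50 mg/kg, and of at most 0.07 in the other groups. It was 11.45 in PCB126 50 mg/kg replicate 5, against 10.97 to 11.04 in the others of that group, and 11.38 in DE-71 50 mg/kg replicate 2, against 10.95 to 11.14. In the DE-71 controls it ranged from 10.94 to 11.35, and the highest were replicates 3 and 4, the only controls of this agent with a high GAPDH difference as defined below. The mean of 42 cytosolic ribosomal protein genes, a comparison chosen after the values were seen, was also raised in these samples. It was 11.72 in PCB126 50 mg/kg replicate 5, against at most 11.41 in the rest of its group. In DE-71 50 mg/kg replicate 2 it was 11.76, against at most 11.45. DE-71 control replicates 3 and 4 had 11.71 and 11.49, against at most 11.44 in the other controls. Over the 72 samples, with all agents pooled, the chain and ribosomal means had a Pearson r of 0.844. Differences in level between agents, which may come from normalization, enter this r. The difference between the 3′ and 5′ control probe sets of GAPDH, a measure of RNA integrity, was above 1 log2 unit in 17 of the 72 samples, spread over 11 of the 15 groups. Their part in the results was not tested. The counts of called chain genes were repeated without these 17 samples, and these counts and the medians with each sample left out in turn; the other counts below were not.

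**Figure D1:**
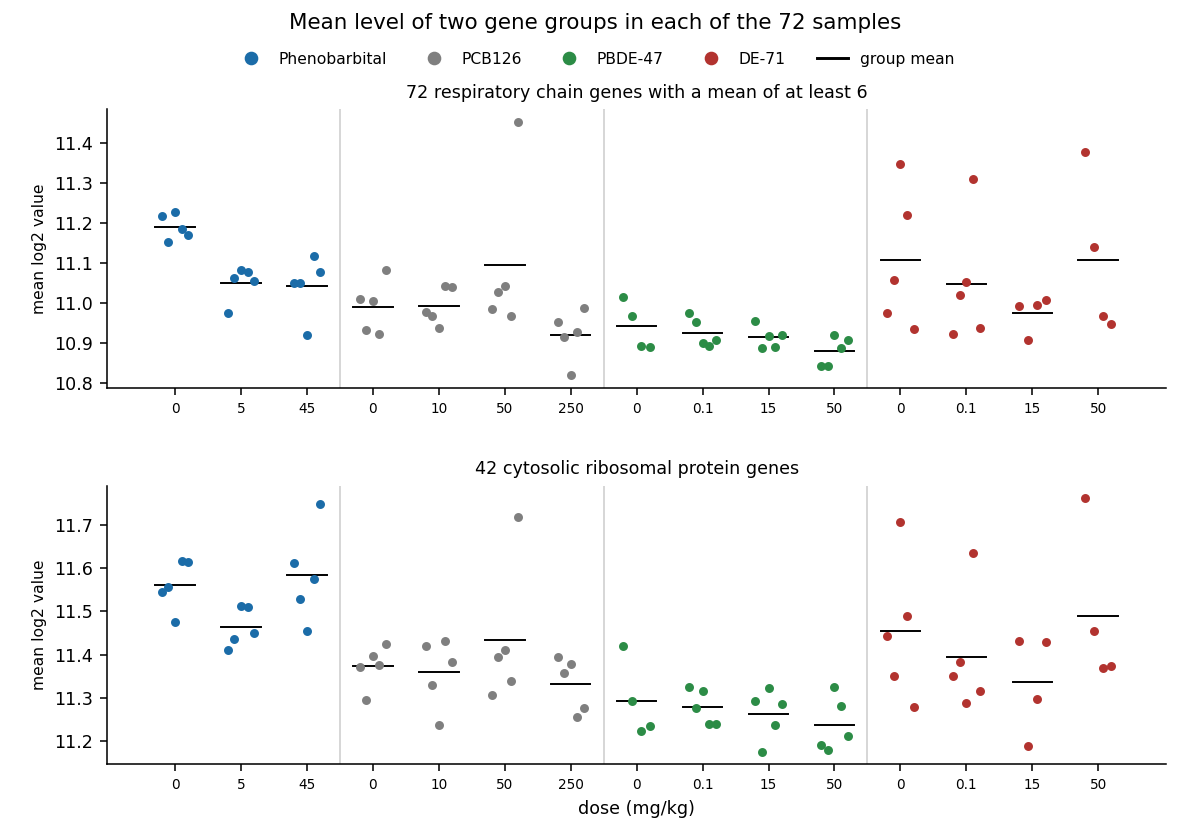
Mean log2 value of the 72 chain genes with a mean of at least 6 (upper panel) and of 42 cytosolic ribosomal protein genes (lower panel) in each of 72 samples, by agent and dose in mg/kg; points are samples and lines are group means. All 5 Phenobarbital controls lie above the 10 Phenobarbital samples in the upper panel, and single high samples in PCB126 and DE-71 are high in both panels.

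With Phenobarbital most chain genes stood lower than in the controls. The mean of the 72 genes was 11.15 to 11.23 in the 5 controls, 10.98 to 11.08 at 5 mg/kg and 10.92 to 11.12 at 45 mg/kg, so that every treated sample lay below every control sample at both doses. At 45 mg/kg (n = 5 against 5) 71 of the 80 genes had a log2 fold change below 0, with a median of -0.16, beside -0.02 over all genes and over the 3420 genes with a mean of at least 8. Complexes I and III stood lowest, at medians of -0.18 and -0.19, complex IV at -0.15 and complex V at -0.13, and complex II, the succinate dehydrogenase, at -0.01. The ribosomal protein genes stood at a median of 0.00, with 22 of 42 below 0. Of the markers of other cell types, 1 of 3 for cholangiocytes and 1 of 5 for adipocytes rose, and 0 of 8 hepatocyte markers changed; their part in the chain values was not tested. The only sample with a GAPDH difference above 1 was control replicate 3, at 2.07, and without it the median was -0.14 and Ndufs7, Ndufs8 and Ndufv1 were called.

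At 45 mg/kg limma called 4 of the 80 genes at an adjusted p below 0.05, all fallen. They are 5% of the chain genes, where 2.7% of all genes were called, and 6.96% of the genes with a mean of at least 8. At an unadjusted p below 0.05, 27 chain genes were lower and 1 was higher, where 12.8% of all genes passed in either direction. Ndufs7 encodes the core subunit of complex I with the last iron-sulfur cluster before ubiquinone. Its value was 10.69, 10.78, 10.64, 10.77 and 10.63 in the controls and 10.33, 10.48, 10.25, 10.44 and 10.36 at 45 mg/kg, so the groups do not overlap. It fell by 0.33 on the log2 scale (0.795-fold, 95% confidence interval -0.46 to -0.20, adjusted p = 0.000576), and the call was kept in all 10 fits that leave out 1 sample and in all 11 other settings. Ndufv1, the core subunit that binds NADH and the flavin, was between 10.47 and 10.59 in the controls and between 10.20 and 10.38 at 45 mg/kg, again without overlap. It fell by 0.28 (0.825-fold, interval -0.42 to -0.13, adjusted p = 0.0163, lost in 2 of 10 fits). Cox6b1, an accessory subunit of cytochrome c oxidase that faces the intermembrane space, was between 11.35 and 11.54 in the controls and between 11.01 and 11.30 at 45 mg/kg. It fell by 0.26 (0.836-fold, interval -0.39 to -0.12, adjusted p = 0.02, lost in 4 of 10 fits). Ndufb3, an accessory subunit of the membrane arm of complex I, fell by 0.24 (interval -0.38 to -0.10, adjusted p = 0.0453), with 11.19 to 11.46 at 45 mg/kg against 11.44 to 11.71, a small overlap. The last call was lost in 8 of 10 fits without 1 sample (adjusted p = 0.0214 to 0.199). Over the 11 other settings Ndufv1 and Cox6b1 lost the call in 1 each and Ndufb3 in 6. With only the arrays of this comparison Cox6b1 (adjusted p = 0.0876, lowest of 11 settings 0.00712) and Ndufb3 (0.134, lowest 0.0292) were not called. Without Phenobarbital 45 mg/kg replicate 3 only Ndufs7 was called, and 2 genes, Ndufs7 and Ndufv1, were called without replicate 1 or 5 of that group. With each array centred on its median 2 genes were called, with array weights 10, and without the 17 samples of a high GAPDH difference in the fit 7, all of them fallen.

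In 19 of the 80 genes (23.8%) every 45 mg/kg sample lay below every control sample, where 3.39% of all genes did so. They were 11 genes of complex I, 3 of complex III, 2 of complex IV and 3 of complex V, and include Ndufs3 and Ndufs6 of the peripheral arm, Uqcrc1 of the core of complex III, and Atp5f1e, the epsilon subunit of ATP synthase. No chain gene had the groups apart in the other direction. Not all core subunits were lower: Ndufs1, the largest iron-sulfur subunit of complex I, stood at 0.15 and Uqcrc2, the second core protein of complex III, at 0.22 (adjusted p = 0.564 and 0.351). Atp5f1b, the catalytic beta subunit of ATP synthase, stood at 0.02, its alpha subunit Atp5f1a at -0.08 and Sdhb, the iron-sulfur subunit of succinate dehydrogenase, at -0.03. Between these and the called genes stood Ndufs8, an iron-sulfur subunit of complex I, at -0.23 (adjusted p = 0.139), Uqcrc1 at -0.24 (0.103), and Cox5b and Cox4i1 of complex IV at -0.20 and -0.16 (0.137 and 0.468).

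At 5 mg/kg limma called 0 of the 80 genes, where 0.106% of all genes were called. Unadjusted, 17 were lower and 0 higher at a p below 0.05, where 6.59% of all genes passed in either direction. The median was -0.12, with 68 of 80 below 0, and the ribosomal protein genes stood at -0.10, with 40 of 42 below 0. In 23 genes (28.8%) every treated sample lay below every control sample, where 1.55% of all genes did so. Ndufb3 was 11.28, 11.23, 11.43, 11.38 and 11.32 at 5 mg/kg, all below the lowest control at 11.44, and stood at -0.28 (interval -0.43 to -0.14, adjusted p = 0.098). Ndufs7, at 10.34 to 10.58, stood at -0.23 (interval -0.36 to -0.10, adjusted p = 0.246). The comparisons of 5 and 45 mg/kg share the same 5 controls. With array weights 2 genes were called at 5 mg/kg, both fallen.

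**Figure D2:**
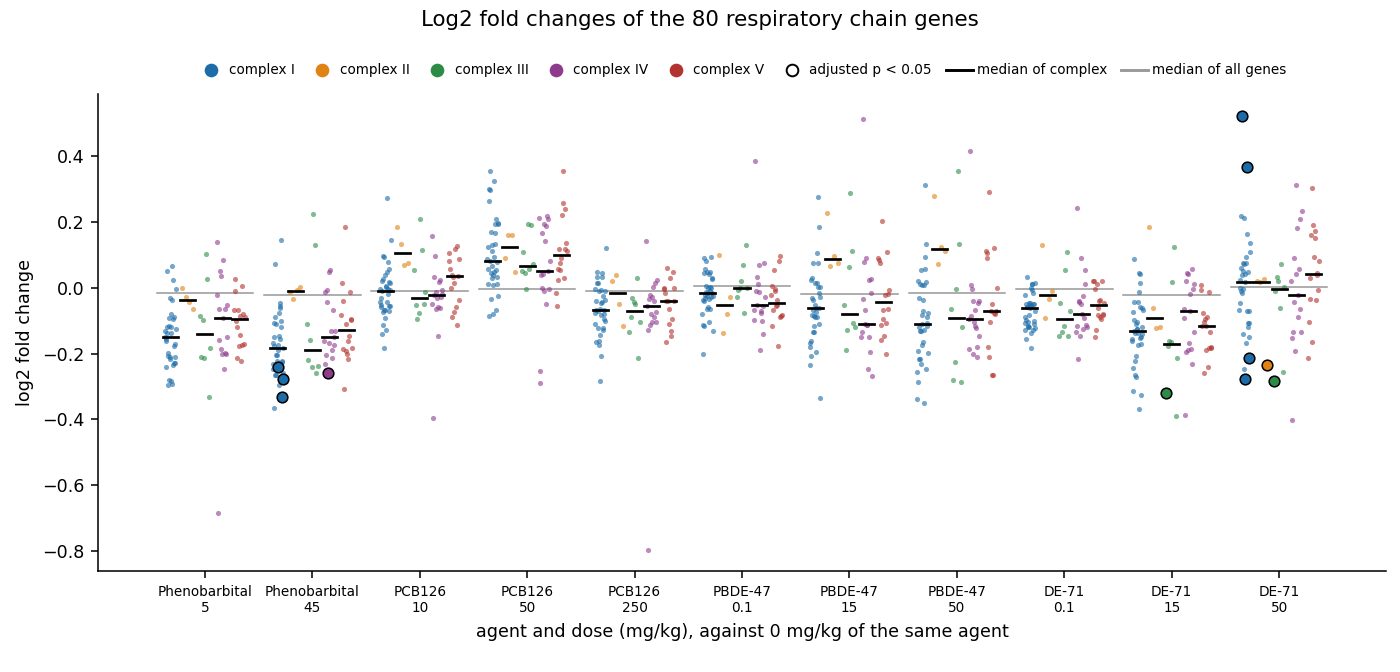
Log2 fold change of each of the 80 chain genes in each dose group against 0 mg/kg of the same agent, coloured by complex; black bars are medians of a complex, grey lines the median of all genes, and outlined points have an adjusted p below 0.05. At Phenobarbital 45 mg/kg the medians of complexes I, III, IV and V lie between -0.19 and -0.13 and that of complex II at -0.01.

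At 50 mg/kg of DE-71 (n = 4 against 5) the called chain genes went in both directions. Both risen calls were lost in 5 of 9 fits without 1 sample. The median over the 80 genes was 0.02, or -0.08 to 0.06 with 1 sample left out. Limma called 6 of 80 genes (7.5%), 4 fallen and 2 risen, where 10.2% of all genes were called, and 19.4% of those with a mean of at least 8. These shares moved with single samples left out, as given below, and their difference was not tested. At an unadjusted p below 0.05, 7 were lower and 3 higher, where 24.2% of all genes passed in either direction.

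The 4 fallen genes lie in 3 complexes. Every treated sample lay below every control sample in 4 chain genes (5%), not all of them called, where 2.9% of all genes did so. Cyc1, cytochrome c1, the heme protein of complex III that hands electrons to cytochrome c, was 11.23, 11.21, 11.36, 11.55 and 11.40 in the controls and 11.20, 11.07, 11.05 and 10.94 at 50 mg/kg. All treated samples lay below all controls, the closest pair at 11.20 and 11.21. It fell by 0.28 (0.821-fold, interval -0.44 to -0.12, adjusted p = 0.0135), a call lost without control replicate 4 or treated replicate 5 (0.009 to 0.0614 over 9 fits). Ndufb3 was 11.14, 11.30, 11.38 and 11.41 at 50 mg/kg and 11.46 to 11.71 in the controls, again without overlap. It fell by 0.28 (0.824-fold, interval -0.43 to -0.13, adjusted p = 0.00999), a call lost in 1 of 9 fits. Sdhd, which with Sdhc anchors succinate dehydrogenase in the membrane, was 11.35, 11.34, 11.44 and 11.52 against 11.56 to 11.84. It fell by 0.23 (0.85-fold, interval -0.36 to -0.11, adjusted p = 0.0111), but its second, dimmer probe set stood at 0.02 (interval -0.29 to 0.33). Its call was lost in 2 of 9 fits without 1 sample. With the mean of both probe sets Sdhd was not called (adjusted p = 0.575, range over the 11 settings 0.00396 to 0.575). Ndufs7 fell by 0.21 (interval -0.35 to -0.07, adjusted p = 0.0363), with 10.39 to 10.59 against 10.57 to 10.76. Its lowest control lay below its highest treated sample, and the call was lost in 6 of 9 fits without 1 sample.

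The 2 risen genes are accessory subunits of complex I. Ndufa5, of the matrix arm, was 10.54 in replicate 2, 9.86 in replicate 3, 9.22 in replicate 4 and 9.43 in replicate 5, against 8.89 to 9.75 in the controls. Ndufc1, of the membrane arm, was 12.12, 11.68, 11.19 and 11.28 in the same samples, against 10.91 to 11.62. In both genes 2 samples lay above all controls and 2 within their range. Ndufa5 rose by 0.52 (1.44-fold, interval 0.18 to 0.86, adjusted p = 0.0371) and Ndufc1 by 0.37 (1.29-fold, interval 0.12 to 0.61, adjusted p = 0.0393). Both calls were lost in 5 of 9 fits without 1 sample, those without control replicates 1, 2 and 5 and treated replicates 2 and 3. The adjusted p ranged from 0.0044 to 0.516 for Ndufa5 and from 0.00513 to 0.53 for Ndufc1, highest without replicate 2.

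Without replicate 2 the only chain gene called at DE-71 50 mg/kg was Cyc1, where 2.73% of all genes were called, and the median of the 80 genes was -0.08. Without the samples of a high GAPDH difference, which removes DE-71 50 mg/kg replicate 3 and 2 controls, 11 were called, 9 risen and 2 fallen. The 2 removed controls, replicates 3 and 4, had the highest chain means of the controls, at 11.35 and 11.22. Treated replicate 2, at 11.38, was kept. The part of this choice in the 9 rises was not tested. Treated replicate 4 is nearly identical to DE-71 15 mg/kg replicate 5, so either group may hold a sample of the other dose; without replicate 4, 7 chain genes were called, and 13.8% of all genes. Without both samples and the similar PBDE-47 pair, 6 were called, 5 of them the same, and Ndufs7 was not. With array weights 1 was called, with only the arrays of this comparison 0, and with each array centred on its median 3 risen and 1 fallen. The hepatocyte marker mean was 13.65 to 13.91 at this dose and 13.88 to 13.95 in the controls, and 2 of the 8 markers fell. Of the 4 endothelial markers 1 fell, of the 6 stellate cell and fibroblast markers 1 rose and 1 fell, and 1 of 3 cholangiocyte and 1 of 5 adipocyte markers rose; their part in the chain values was not tested. In these pieces of tissue, fewer cells of a type and less RNA per cell cannot be told apart.

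At 15 mg/kg of DE-71 (n = 4 against 5) Cyc1 was the 1 chain gene called, where 1.24% of all genes were called. Unadjusted, 14 chain genes were lower and 0 higher at a p below 0.05, where 10.3% of all genes passed. Cyc1 was 11.08 (the mean of replicates 1 and 2), 11.05, 10.86 and 11.13, all below the lowest control at 11.21. It fell by 0.32 (0.801-fold, interval -0.48 to -0.16, adjusted p = 0.0206), a call lost when control replicate 3, control replicate 4 or replicate 4 of the treated group was left out (adjusted p = 0.0117 to 0.179 over 9 fits). With only the arrays of this comparison it was not called either (0.336, range over 11 settings 0.00833 to 0.336). Without control replicate 5, Uqcrh, the hinge protein of complex III, was called as well. The median of the 80 genes was -0.12, with 67 below 0, and the ribosomal protein genes stood at -0.13. Without control replicate 3, a sample of a high GAPDH difference, the median was -0.07, with 60 below 0. Of the cholangiocyte markers 1 of 3 rose, and its part in the chain values was not tested. At 0.1 mg/kg limma called 0, where 0% of all genes were called. Unadjusted, 3 were lower and 0 higher at a p below 0.05, where 6.39% of all genes passed, and the chain median was -0.06. That median rested on single samples: it was 0.0018, with 39 of 80 below 0, without control replicate 3, and -0.145 without treated replicate 4. Both comparisons, like that of 50 mg/kg, use the same 5 controls.

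**Figure D3:**
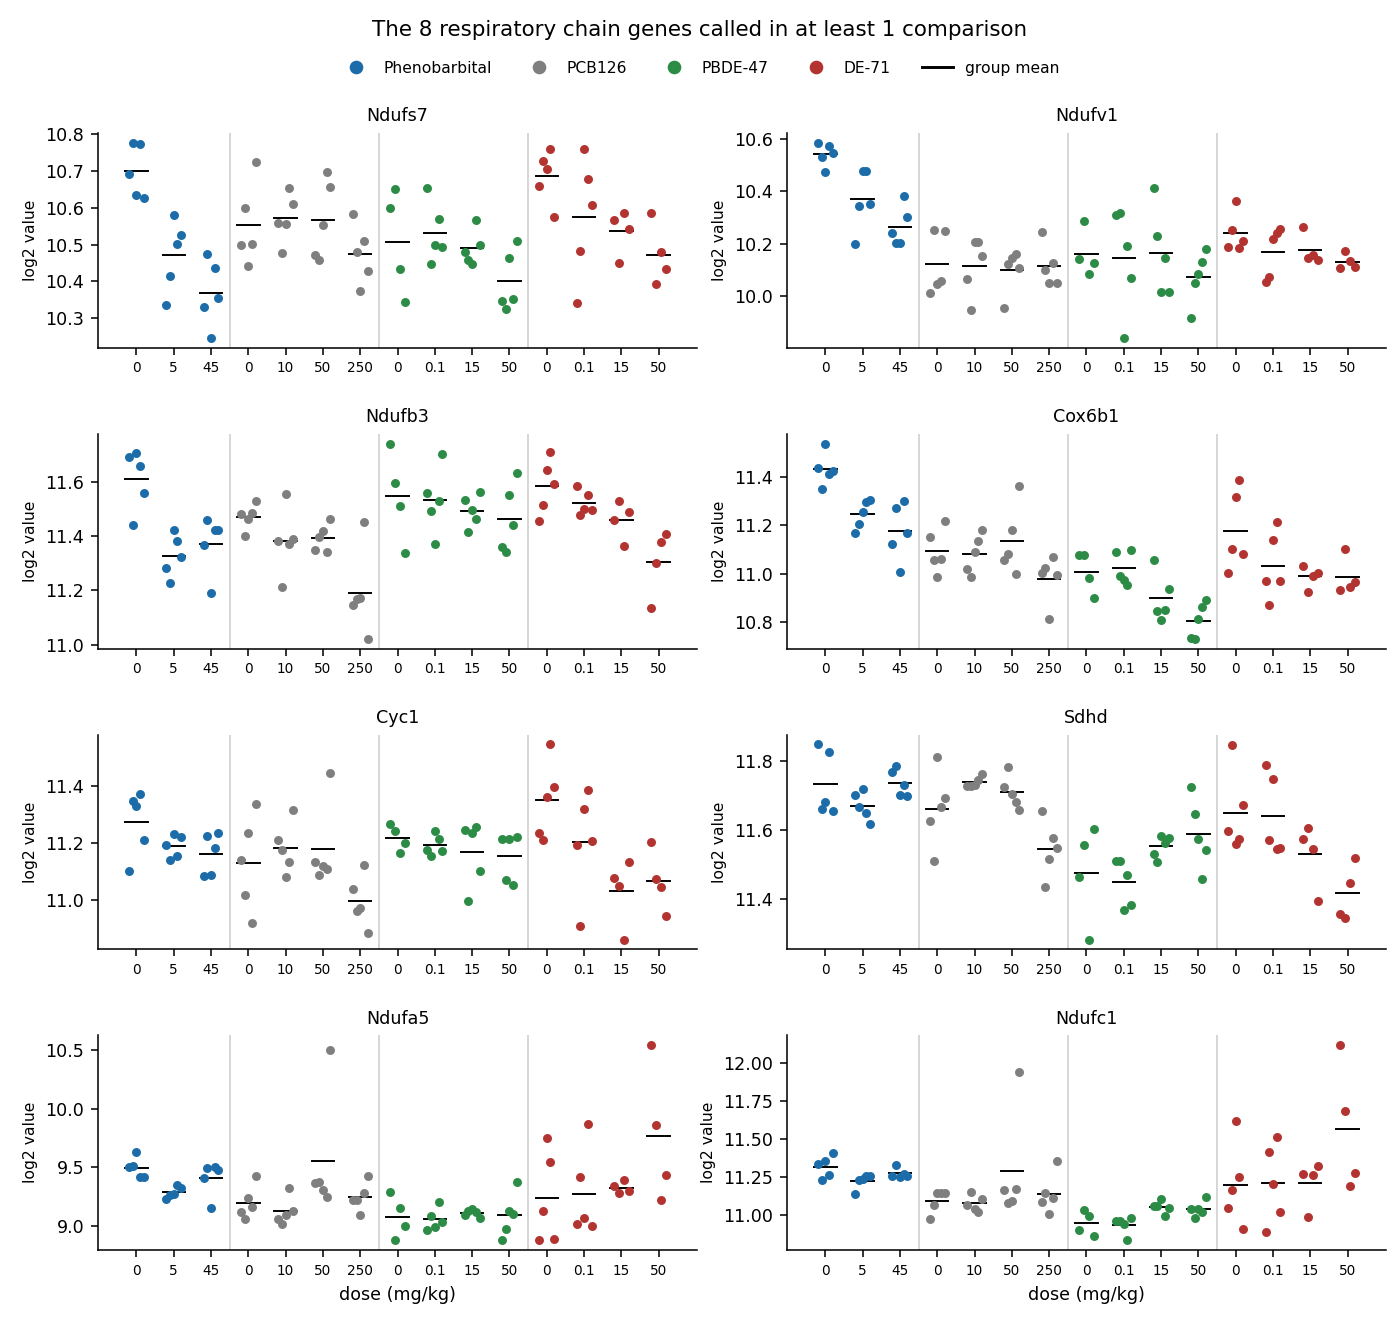
Log2 values of the 8 chain genes called in at least 1 comparison, in each of 72 samples by agent and dose in mg/kg; points are samples and lines are group means. Ndufs7 at Phenobarbital 45 mg/kg lies wholly below its controls, and the 2 risen genes at DE-71 50 mg/kg, Ndufa5 and Ndufc1, have 2 samples above all controls and 2 among them.

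At 50 mg/kg of PBDE-47 (n = 5 against 4) the median of complex II stood above 0 and those of the other complexes below, with no single gene past the threshold. Limma called 0 of the 80 genes, where 4.03% of all genes were called. Unadjusted, 13 were lower and 3 higher at a p below 0.05, where 15.7% of all genes passed. The median of complex I was -0.11, of complex III -0.09, of complex IV -0.10 and of complex V -0.07. All 4 genes of complex II were above 0, with a median of 0.12. Sdha, the flavin subunit that oxidises succinate, stood at 0.28 (interval 0.06 to 0.50, adjusted p = 0.145), Sdhc at 0.12, Sdhd at 0.11 and Sdhb at 0.07. The ribosomal protein genes stood at a median of -0.07, with 26 of 42 below 0. Replicate 3 of this group is nearly identical to PBDE-47 15 mg/kg replicate 3, so either group may hold a sample of the other dose, and without both, and the similar DE-71 pair, 0 chain genes were called at either dose.

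The genes nearest the threshold went both ways. Ndufa1, a small subunit of complex I, was 11.47, 11.46, 11.55, 11.60 and 11.62 at 50 mg/kg and 11.93, 12.02, 11.84 and 11.73 in the controls, without overlap. It stood at -0.34 (interval -0.55 to -0.13, adjusted p = 0.0536). Uqcr10, a small subunit of complex III, stood at -0.28 (interval -0.46 to -0.10, adjusted p = 0.0671), also without overlap. Uqcrc2 was 11.04, 11.11, 10.95, 10.63 and 10.83 against 10.40, 10.56, 10.49 and 10.77, and 1 treated sample lay among the controls. It stood at 0.36 (interval 0.13 to 0.58, adjusted p = 0.0547) and Ndufs1 at 0.31 (interval 0.11 to 0.52, adjusted p = 0.0664). With the mean of its probe sets the adjusted p of Uqcrc2 was 0.69. Every treated sample lay below every control sample in 12 chain genes (15%), where 4.2% of all genes did so. Between 0 and 8 chain genes were called under the other settings: 4 with all 74 arrays as separate samples, after quantile normalization or without dim genes, 8 with array weights, 3 without samples of a high GAPDH difference, and 2 when either control replicate 5 (Ndufa1 and Uqcrc2) or treated replicate 4 (Uqcrc2 and Cox7b2) was left out. At this dose 5 of the 6 measured Kupffer cell and macrophage markers fell, with a list mean of 7.56 to 8.01 against 8.20 to 8.67 in the controls, and 1 of 3 cholangiocyte and 1 of 5 adipocyte markers rose. The part of these in the chain values was not tested.

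At 15 mg/kg of PBDE-47 limma called 0 chain genes, where 0.823% of all genes were called. Unadjusted, 6 were lower and 3 higher at a p below 0.05, where 11.2% of all genes passed. In 6 genes (7.5%) all treated samples lay below all controls, where 2.43% of all genes did so. The median was -0.06 over the 80 genes and 0.09 over the 4 genes of complex II, with Ndufs1 at 0.28 and Uqcrc2 at 0.29. The first of these medians was -0.03 when control replicate 1 was left out and -0.04 without treated replicate 2. Here too 1 of 3 cholangiocyte and 1 of 5 adipocyte markers rose, and their part was not tested. At 0.1 mg/kg 0 were called, where 0% of all genes were called. Unadjusted, 1 was lower and 0 higher, beside 3.21% of all genes, and the chain median was -0.02.

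DE-71 and PBDE-47 share doses, so the response to the mixture was compared with that to the single congener at each of the 3 matched doses, over all genes. Limma called no chain gene: 0 at 0.1 mg/kg, where 0% of all genes were called, 0 at 15 mg/kg (0.0141%) and 0 at 50 mg/kg (0.12%). The counts at an unadjusted p below 0.05 were 0, 5 and 9, where 4.53%, 5.11% and 11.4% of all genes passed. At 50 mg/kg Sdhd stood at -0.23 with DE-71 and 0.11 with PBDE-47, a difference of -0.35 (interval -0.53 to -0.17, adjusted p = 0.0906). It was called when control replicate 5 or treated replicate 4 of PBDE-47 was left out, and with all 74 arrays as separate samples. Ndufs1 (-0.11 and 0.31, difference -0.42, interval -0.71 to -0.13) and Uqcrc2 (-0.06 and 0.36, difference -0.42, interval -0.73 to -0.10) differed in the same direction with adjusted p of 0.28 and 0.31. Ndufa5 differed the other way (0.51, interval 0.03 to 0.996, adjusted p = 0.414). These intervals do not show that the mixture and the congener acted alike. For Cyc1 the difference was -0.27 at 15 mg/kg (interval -0.49 to -0.04, adjusted p = 0.967).

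With PCB126 limma called 0 chain genes at every dose. At 10 mg/kg, where 0% of all genes were called, 0 chain genes and 2.67% of all genes were below 0.05 unadjusted. The chain median was -0.01, or -0.02 to 0.02 with 1 sample left out. At 50 mg/kg, where 0.00703% were called, 9 were higher and 1 lower unadjusted, beside 5.63% of all genes. The chain median was 0.08, which became 0.01 without replicate 5, the sample with the high chain mean. At 250 mg/kg, where 0.0563% were called, 5 were lower and 0 higher unadjusted, beside 5.82% of all genes. The chain median was -0.05, or -0.03 without control replicate 5 or treated replicate 3. Ndufb3 was 11.15, 11.17, 11.17, 11.45 and 11.02 at 250 mg/kg and 11.48, 11.40, 11.46, 11.49 and 11.53 in the controls. Only replicate 4 lay among the controls, and the gene stood at -0.28 (interval -0.42 to -0.14, adjusted p = 0.199). Without that sample it was called (adjusted p = 0.0245, range over 10 fits 0.0245 to 0.562). The next genes by p were Ndufa13, a membrane-arm subunit, at -0.16 (adjusted p = 0.839), and, above 0, Cox4i1 at 0.14 (0.924) and Ndufv3 at 0.12 (0.973).

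Isoforms known from other tissues had means below 6 log2 units. Cox4i2, of lung, had a mean of 3.67, Cox6a2, Cox7a1 and Cox8b, of heart and skeletal muscle, 3.64, 3.75 and 3.29, Cox6b2 and Cox7b2, of testis, 3.49 and 2.95, and Ndufa4l2 3.45. None of them was called in any comparison. Cox6b2 was the 1 chain gene with all DE-71 50 mg/kg samples above all controls, where 2.69% of all genes were so placed. It stood at 0.31 (adjusted p = 0.0841). The muscle marker list was also dim except for Myh1, the 1 of 10 measured genes at or above 6. Its mean was 10.47, with samples from 9.80 to 11.58. Cox5a, a subunit of complex IV, had the largest spread within groups (SD 0.60, where the median of the 72 genes was 0.16 and that of all genes 0.18). It stood at -0.80 at PCB126 250 mg/kg (interval -1.53 to -0.06) and -0.69 at Phenobarbital 5 mg/kg without being called, and a second, brighter probe set that also matches another gene stood at -0.04 (interval -0.16 to 0.09) and -0.07 (interval -0.19 to 0.05) in these comparisons. Another 6 subunit genes, Atp5mc1, Atp5mc2, Cox7a2, Uqcrb, Ndufs5 and Ndufa10, were measured only on probe sets shared with another gene and are not among the 80. Of these, the probe set of Ndufs5 and Ndufs5-ps2 stood at 0.31 at DE-71 50 mg/kg (interval 0.08 to 0.53, unadjusted p = 0.00878).

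Genes that build, feed and maintain the chain were read from 5 lists. Of 44 measured assembly factors (50 listed), 1 rose with Phenobarbital at 45 mg/kg, 2 rose with PBDE-47 at 50 mg/kg, and 4 rose and 2 fell with DE-71 at 50 mg/kg, where 2.7%, 4.03% and 10.2% of all genes were called; none was called at any other dose. These shares are near those of all genes. Acad9, an acyl-CoA dehydrogenase needed to assemble complex I, rose in all 3. It was 9.16, 8.51, 9.15, 9.70 and 9.48 in the Phenobarbital controls and 10.05, 10.14, 9.92, 10.22 and 10.12 at 45 mg/kg, a rise of 0.89 without overlap (1.85-fold, SE 0.19, adjusted p = 0.00235). With DE-71 at 50 mg/kg it was 10.78, 10.29, 9.83 and 9.87 against 8.87 to 9.58, a rise of 0.99 (1.98-fold, SE 0.20, adjusted p = 0.000631), kept in all 9 fits without 1 sample (adjusted p = 0.000255 to 0.025) but not with only the arrays of this comparison (0.0682, the highest of 11 settings, lowest 0.00027). With PBDE-47 at 50 mg/kg it rose by 0.68 (1.6-fold, adjusted p = 0.0422), a call lost in 6 of 9 fits without 1 sample. Its value stood at 0.76 at PCB126 10 mg/kg (adjusted p = 0.999) and 0.57 at 250 mg/kg (0.665). Ndufaf1, a further complex I assembly factor, rose by 0.47 with PBDE-47 at 50 mg/kg (adjusted p = 0.012, lost in 3 of 9 fits) and by 0.37 with DE-71 at 50 mg/kg (0.0349). With DE-71, Sdhaf4 of complex II assembly rose by 0.41 and Cox16 of complex IV assembly by 0.47, while Atpaf1 of ATP synthase assembly fell by 0.34 and Lrpprc, which stabilises mitochondrial messenger RNA, by 0.34; these 4 and Ndufaf1 were not called without DE-71 50 mg/kg replicate 2 (adjusted p = 0.538, 0.494, 0.137, 0.392 and 0.326, each the highest of 9 fits, whose lowest lay between 0.00338 and 0.0179). Over the 9 fits Sdhaf4 lost its call in 4, Cox16 in 3, Atpaf1 in 1, and Lrpprc and Ndufaf1 in 5 each. Lrpprc and Atpaf1 were also not called with the mean of all their probe sets (adjusted p = 0.955 and 0.342).

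Of 17 measured genes of electron carriers and coenzyme Q synthesis, 2 fell with Phenobarbital at 45 mg/kg (2.7% of all genes called) and 1 rose with PBDE-47 at 50 mg/kg (4.03%). Etfb, a subunit of the electron transfer flavoprotein that brings electrons from fatty acid oxidation to ubiquinone, was 12.10 to 12.26 in the Phenobarbital controls, 11.83 to 11.99 at 5 mg/kg and 11.69 to 11.85 at 45 mg/kg. Every treated sample lay below every control, and at 45 mg/kg it fell by 0.38 (0.766-fold, SE 0.07, adjusted p = 0.000525), a call kept in all 10 fits without 1 sample. It stood at -0.25 at PBDE-47 50 mg/kg (adjusted p = 0.0517) and -0.22 at DE-71 50 mg/kg (0.0573). Coq8a, needed for coenzyme Q synthesis, fell by 0.51 with Phenobarbital (adjusted p = 0.0268, lost in 6 of 10 fits without 1 sample, range 0.0126 to 0.0804), and Coq5, a methyltransferase of that pathway, rose by 0.48 with PBDE-47 (0.0298, lost in 6 of 9, range 0.00852 to 0.216).

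In the tricarboxylic acid cycle and pyruvate dehydrogenase, 3 of 15 genes rose with PBDE-47 at 50 mg/kg, where 4.03% of all genes were called. They were Dlst (0.34), of the 2-oxoglutarate dehydrogenase, and Pdha1 (0.30) and Pdhb (0.26), of pyruvate dehydrogenase, and all 3 calls were lost without the averaged 0 mg/kg replicates 3 and 4 (adjusted p = 0.0758, 0.191 and 0.281, each the highest of 9 fits, whose lowest were 0.0135, 0.00828 and 0.0179; lost in 1, 5 and 4 of 9). Pdha1 was also not called with the mean of all its probe sets (adjusted p = 0.548). With DE-71 at 50 mg/kg, where 10.2% of all genes were called, 1 gene fell, Mdh2 (-0.29), the mitochondrial malate dehydrogenase. Mdh2 was not called in 6 of 9 fits without 1 sample (0.0282 to 0.195).

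Among 19 genes of mitochondrial biogenesis and mitochondrial DNA upkeep, Polg, the catalytic subunit of the mitochondrial DNA polymerase, fell with both Phenobarbital and DE-71, where 2.7% and 10.2% of all genes were called. It was 9.46, 9.28, 9.54, 9.46 and 9.36 in the Phenobarbital controls, 8.92, 8.95, 9.03, 8.93 and 8.70 at 5 mg/kg and 8.84, 8.79, 8.73, 8.69 and 8.65 at 45 mg/kg. All treated samples lay below all controls; it fell by 0.68 at 45 mg/kg (0.623-fold, SE 0.13, adjusted p = 0.000397) and stood at -0.52 at 5 mg/kg (0.107). At DE-71 50 mg/kg it was 8.20, 8.58, 9.12 and 8.20 against 9.07 to 9.38, and replicate 4 lay among the controls. It fell by 0.67 (0.629-fold, SE 0.14, adjusted p = 0.000593) and was called in all 9 fits without 1 sample (adjusted p up to 0.0188). With the mean of all its probe sets Polg was not called with Phenobarbital (0.0527) or DE-71 (0.0699), nor with DE-71 with only the arrays of the comparison (0.118). The other 10 settings with Phenobarbital and 9 with DE-71 kept the call. Polrmt, the mitochondrial RNA polymerase, fell by 0.26 with Phenobarbital (0.044, lost in 8 of 10 fits, range 0.0177 to 0.191). Tfb2m, a mitochondrial transcription factor, rose by 0.40 with PBDE-47 at 50 mg/kg (0.0399, lost in 8 of 9, range 0.026 to 0.153), and Ssbp1, which binds single-stranded mitochondrial DNA, rose by 0.44 with DE-71 at 50 mg/kg (0.00321, but 0.134 without replicate 2, lowest of 9 fits 0.00103). Of 14 genes of mitochondrial carriers, uncoupling and control of ATP synthase, limma called 0 in any comparison.

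**Figure D4:**
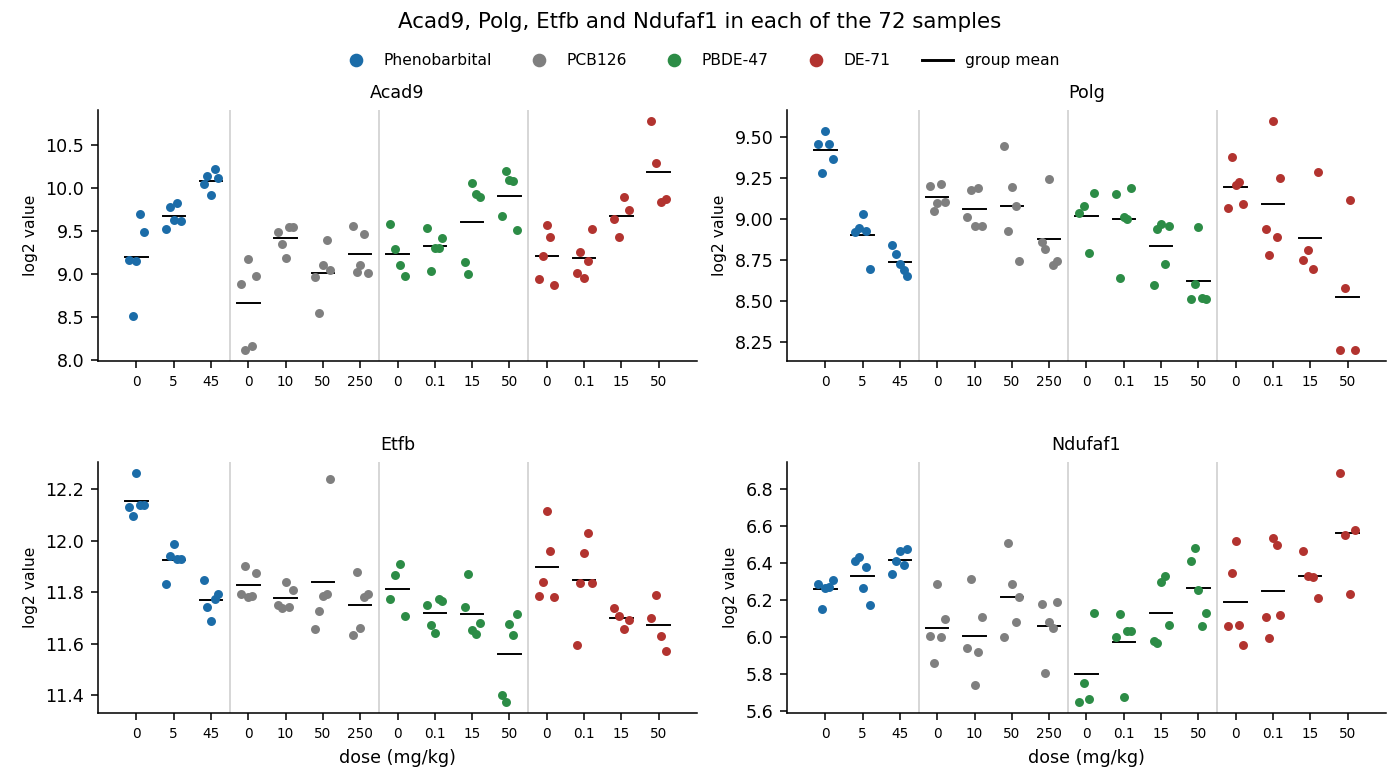
Log2 values of Acad9, Polg, Etfb and Ndufaf1 in each of 72 samples, by agent and dose in mg/kg; points are samples and lines are group means. At Phenobarbital 45 mg/kg all 5 samples lie above the controls for Acad9 and below them for Polg and Etfb.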

How the data were processed

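The deposited table holds log2 values, made by the authors with RMA per the submitters' processing notes; its version is not given in the sources used here. Symbols come from the array annotation, checked through gene IDs against RefSeq (20758 of 20826 single-gene probe sets matched, with 0 renamed). Of 31099 probe sets 20826 name 1 gene, 436 several and 9780 none. Each of 14217 genes was read from 1 probe set, the brightest of those naming only it (8 of the 80 had a choice); no dim filter was used. Array value distributions look normalized per agent, which no label states, so doses were compared within an agent.

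Among 656 pairs of arrays of the same agent 4 were nearly identical (root mean square difference below 0.3 over 300 variable genes); the 2 pairs of the same group were averaged and the 2 across doses kept (PBDE-47 15 and 50 mg/kg replicates 3; DE-71 15 mg/kg replicate 5 and 50 mg/kg replicate 4). A model with 15 group means was fitted to 72 samples with limma 3.58.1 in R 4.3.3 (57 residual and 5 prior degrees of freedom), two-sided p-values adjusted by Benjamini-Hochberg over all genes per comparison. Genes were called at an adjusted p below 0.05; rose and fell refer to called genes. The test was checked on simulated data. Nothing says that replicates come from separate litters, so p-values speak only of the variation among these samples, which may be technical. The number of arrays limits the precision.

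The members and lists were chosen with earlier results of these data known. Named genes are called members, the 2 nearest the threshold per direction at the highest doses, core subunits, isoforms and the called genes of each list. The planned limit of 4 called genes per list and comparison was passed for assembly factors at DE-71 50 mg/kg. The rule's brightest and dimmest member per complex were not named, since probe sets cannot be compared in level. Atp5if1 is a member and on the list of carriers. Alternatives covered sample averaging, normalization, dim genes, probe sets, variance prior, array weights and replicate number.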

Additional observations from a re-analysis of the deposited data

Results flagged for a closer look

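A single sample stood apart from the rest of its group, by Dixon's criterion at the 95% level, in 10 of 158 groups of values checked; chance gives about 1 in 20. In PCB126 50 mg/kg it was replicate 5, whose mean log2 value was 11.1398 for complex I (nearest sample 10.6630), 11.5879 for complex III (11.3140) and 11.9880 for complex V (11.5649). In Phenobarbital 5 mg/kg it was replicate 1, lowest for complex IV at 11.1032 (11.1971) and for complex V at 11.5126 (11.6021). Phenobarbital 45 mg/kg replicate 3 was lowest for complex III at 11.2163 (11.3777). DE-71 15 mg/kg replicate 3 was lowest for complex I at 10.5173 (10.6291), PCB126 10 mg/kg replicate 3 for complex II at 10.9402 (11.0458) and PBDE-47 0.1 mg/kg replicate 4 for complex IV at 11.0408 (11.1849). Etfb was highest in Phenobarbital 0 mg/kg replicate 3 at 12.2628 (12.1398), the control with the GAPDH difference of 2.07.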

How the results depend on the processing

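The number of chain genes called was 4 with Phenobarbital 45 mg/kg, 6 with DE-71 50 mg/kg, 1 with DE-71 15 mg/kg and 0 elsewhere, and moved as follows. With all 74 arrays as separate samples it was 4 for PBDE-47 50 mg/kg, 2 for DE-71 15 mg/kg and 1 for the difference between DE-71 and PBDE-47 at 50 mg/kg. With only the arrays of a comparison it was 1 for PBDE-47 50 mg/kg, and DE-71 had 0 at both 15 and 50 mg/kg. In that setting Cox6b1 and Ndufb3 lost their calls at Phenobarbital 45 mg/kg. Quantile normalization gave 2 for DE-71 15 mg/kg, and 4 for PBDE-47 50 mg/kg. Centring each array on its median gave 0 for DE-71 15 mg/kg, and 2 for Phenobarbital 45 mg/kg, while leaving out genes with a mean below 6 gave 4 for PBDE-47 50 mg/kg. Array quality weights gave 2 for Phenobarbital 5 mg/kg, 10 for 45 mg/kg, 1 for DE-71 50 mg/kg, and 8 for PBDE-47 50 mg/kg. Without samples of a GAPDH difference above 1, an alternative chosen after seeing the data, it was 7 for Phenobarbital 45 mg/kg, 3 for PBDE-47 50 mg/kg, and with DE-71 0 at 15 mg/kg but 11 at 50 mg/kg. Correlations of same-numbered samples of an agent ranged from -0.42 to 0.44. They were not set beside those of differently numbered samples, so they cannot show whether replicate numbers pair the samples. A replicate block gave 1 for PBDE-47 50 mg/kg, 3 for Phenobarbital 45 mg/kg, and with DE-71 4 at 50 mg/kg but 1 at 15 mg/kg. Leaving out 1 sample at a time gave 1 to 4 for Phenobarbital 45 mg/kg, 0 to 1 for PCB126 250 mg/kg, 0 to 2 for PBDE-47 50 mg/kg, 0 to 2 for DE-71 15 mg/kg, 1 to 7 at 50 mg/kg of DE-71 and 0 to 1 for the difference at 50 mg/kg. For the 11 called pairs of a chain gene and a comparison, 70 of 224 alternative fits lost the call, and for 21 pairs of a list gene and a comparison 115 of 425 did; 0 of these fits turned a direction. The cause of these changes was not tested. Among the 8 chain genes with a mean below 6 the signal limits what can be seen.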
